A study of Mus musculus with 12 samples.

Results

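The 9 genes described here encode enzymes that make serine and carry its one-carbon unit on folate: Phgdh, Psat1, Psph, Shmt1, Shmt2, Mthfd1, Mthfd2, Mthfd1l and Tyms. They were chosen by gene symbol, with earlier results of these data known, and each had 1 row among the 13780 genes of the count table. All 9 passed the filter on low counts. RNA-seq was performed on mouse CD8+ T cells, the cytotoxic lymphocytes, in 12 libraries that fall into 3 groups of 4. Naïve cells were frozen for RNA straight after isolation from the spleen, without activation or treatment. Media cells were activated for 72 h with beads that carry antibodies to CD3 and CD28, together with IL-2, in plain culture media. Lactate cells were activated in the same way and for the same time with 40 mM sodium lactate added. By the study's methods the donors were young adult wild-type C57BL/6J mice and the cells were taken by positive magnetic bead selection. The control of the lactate libraries was plain media, so sodium and osmolarity cannot be told apart from lactate.

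Serine is built from the glycolytic intermediate 3-phosphoglycerate by the enzymes of Phgdh, Psat1 and Psph, in that order. The hydroxymethyltransferases Shmt1 (cytosol) and Shmt2 (mitochondria) then split serine into glycine and a one-carbon unit bound to tetrahydrofolate. In mitochondria Mthfd2 and Mthfd1l oxidise that unit and release it as formate, and in the cytosol Mthfd1 puts formate back on folate for the synthesis of purines and, through Tyms, of thymidylate. Activated T cells are known for a high demand on this route, since they copy their DNA within a few days.

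Total counts ran from 14726904 to 21478137 per library. Levels are given as CPM, counts relative to library size with TMM scaling (a trimmed mean of log ratios between libraries), and the members had between 80 counts (Tyms in a naïve library) and 13893 counts (Psat1 in a lactate library). Summed CPM of 5 CD8+ T cell markers was 1776 to 3566 in naïve, 2608 to 3230 in media and 2032 to 2517 in lactate libraries. All 5 B cell markers were detected in each group, and their summed level was 498 to 1206 CPM in naïve, 10.8 to 18.4 in media and 5.59 to 7.86 in lactate libraries. The 6 myeloid markers, likewise detected in each group, summed to 476 to 1541, 11.9 to 18.7 and 5.33 to 10.9 CPM. Cd4 was at 11.2 to 27.1, 0.251 to 0.39 and 0.256 to 0.99 CPM, and the 4 red cell genes listed in the table summed to 84.1 to 3369, 0 to 0.231 and 0.0707 to 1.90 CPM, with Alas2 at 0 in media. Markers of other cell types were thus far higher in the naïve libraries than in either activated group, and their part in the differences from naïve cells was not tested. Between the activated groups, the CD8+ T cell, B cell and myeloid sums were each lower in all lactate than in all media libraries, and their part was not tested either. In bulk RNA, fewer cells of a type and less RNA per cell cannot be told apart. Naïve replicate 4 stood apart from its group (a chi-square of its counts per gene of 120.1 to 134 against the other naïve libraries, which differed among themselves by 23.9 to 43.7), and media replicate 2 had the lowest level of 8 of the 9 genes among the media libraries. Naïve replicate 4 and media replicate 4 were the only libraries of their groups from a high set of library numbers. Media replicate 4 differed from the other media libraries by 41.1 to 50.4, and these among themselves by 10.7 to 31.1. Lactate replicates 3 and 4, both of the high set, differed by 5.58, and all other lactate pairs by 26.9 to 38.6.

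Exposure to sodium lactate during activation was accompanied by higher levels of 7 of the 9 genes than activation in media, with increases from 1.74-fold (Mthfd2) to 3.06-fold (Shmt1), and none was lower at an adjusted p of at most 0.01 (edgeR quasi-likelihood test, adjusted over 13767 genes). Among all genes tested, 13.9% passed in the higher direction. No gene of the 9 was lower at an unadjusted p under 0.05 either, nor by edgeR's likelihood ratio test, DESeq2 or limma voom at an adjusted p of at most 0.01, and each of these tools called 7 higher. Of all 13767 genes tested, these tools called 2246, 2244 and 2008 as higher, in that order. With a donor block added to the model of all 12 libraries, 2 of the 9 passed, Shmt1 and Shmt2, and the calls of Phgdh, Psat1, Psph, Mthfd1 and Mthfd2 were lost. In that fit 625 of all 13767 genes tested passed as higher. Every lactate library lay above every media library for 8 of the 9, a pattern seen for 23.2% of all genes tested. The median log2 fold change was 0.88 over the 9 genes and -0.0016 over all genes tested. Summed over the 9 genes, the level was 341 to 443 CPM in naïve, 1167 to 1798 in media and 2541 to 3014 in lactate libraries. Tyms and Mthfd1l did not pass, the latter with almost the same mean level in both activated groups. Replicate numbers are those of the sample titles and have no order.

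**Figure D1:**
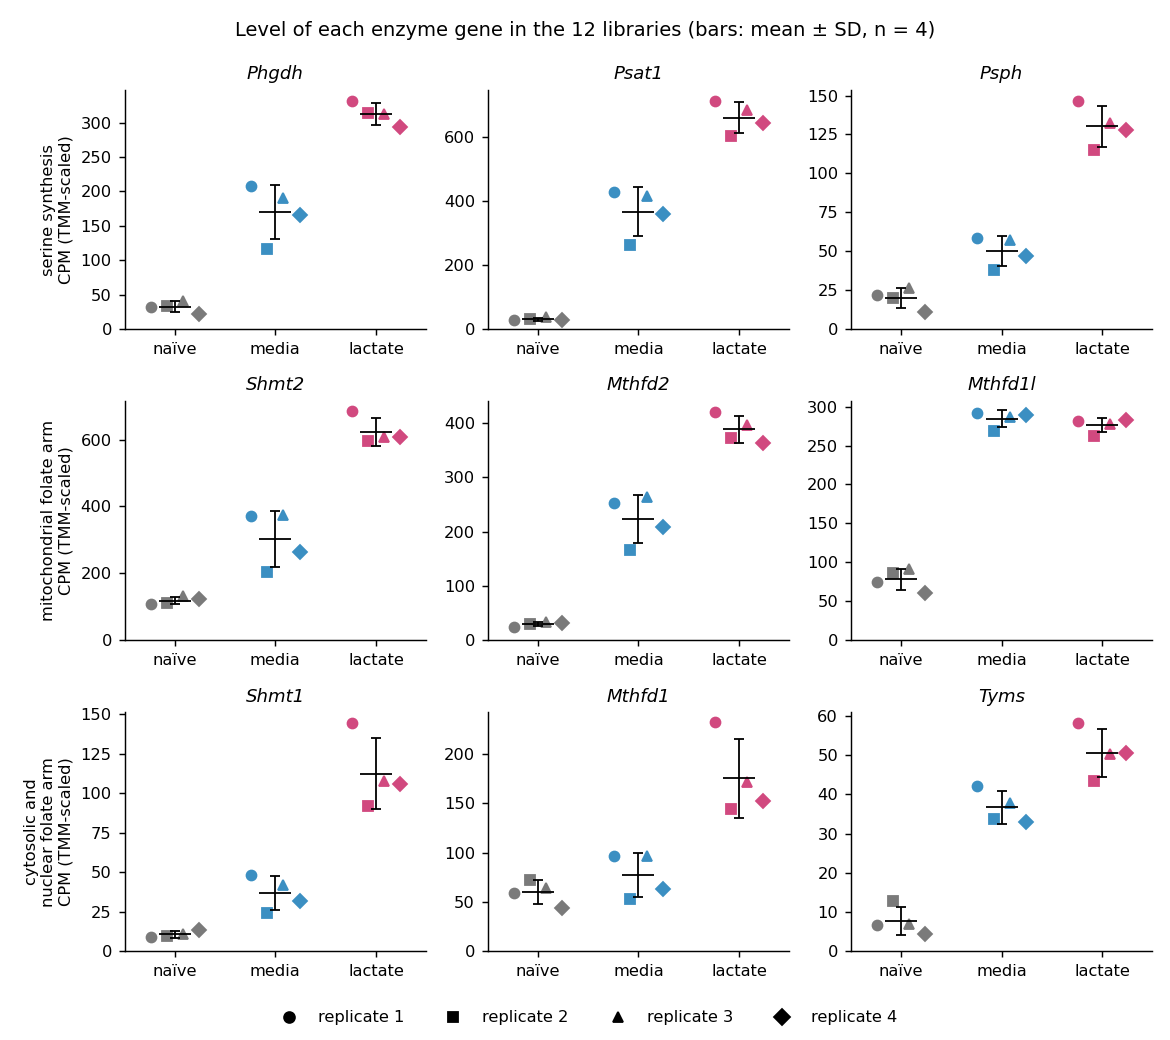
TMM-scaled CPM of the 9 genes (y axes, linear and starting at 0) in naïve, media and lactate libraries (x axes), with 1 symbol per library by replicate number and bars for the mean ± SD of 4 libraries. The lactate libraries lie above all media libraries in every panel other than that of Mthfd1l, whose media libraries span 269 to 292 CPM and whose lactate libraries span 263 to 283 CPM.

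Of the serine synthesis genes, Phgdh encodes phosphoglycerate dehydrogenase, which commits carbon from glycolysis to serine (ENSMUSG00000053398, chr3:98313170-98339990, minus strand; GRCm38 here and for all coordinates, protein coding). Phgdh measured 207, 116, 189.8 and 165 CPM in media replicates 1 to 4 and 332, 314, 312 and 293 CPM in lactate replicates 1 to 4. The lowest lactate library was thus well above the highest media library, and media replicate 2 was the lowest of the activated libraries. The mean rose 1.84-fold (log2 fold change 0.88 ± 0.19 SE, adjusted p = 0.00311, edgeR). Without media replicate 4 or without lactate replicate 3 the adjusted p of Phgdh was 0.0103 (edgeR), just above the threshold, and it was not called. Psat1, the aminotransferase of the following step (ENSMUSG00000024640, chr19:15904678-15947337, minus strand), measured 429, 262, 416 and 359 CPM in media and 712, 603, 683 and 643 CPM with lactate. Its groups did not overlap, and media replicate 2 was again the lowest. Psat1 rose 1.80-fold (log2 fold change 0.85 ± 0.15 SE, adjusted p = 0.00097, edgeR). Psph, the phosphatase that releases serine (ENSMUSG00000029446, chr5:129765558-129787449, minus strand), measured 58.2, 38.1, 57.5 and 47.0 CPM in media and 147, 115, 132 and 128 CPM with lactate. The lowest lactate value of Psph was far above the highest media value. Its rise was 2.60-fold (log2 fold change 1.38 ± 0.22 SE, adjusted p = 0.000484, edgeR). Exons of Psph share 10.4% of their length with Cct6a on the opposite strand, and the sources used here do not say whether reads were counted by strand, so part of its count is uncertain.

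The mitochondrial folate genes divided. Shmt2, the mitochondrial serine hydroxymethyltransferase (ENSMUSG00000025403, chr10:127517123-127522444, minus strand), measured 370.2, 205, 374 and 265 CPM in media and 685, 595, 606 and 608 CPM with lactate. Lactate replicate 1 stood above the other lactate libraries, which were close together, and all 4 were above the media libraries. Shmt2 rose 2.06-fold (log2 fold change 1.04 ± 0.17 SE, adjusted p = 0.000538, edgeR). Mthfd2, the mitochondrial methylenetetrahydrofolate dehydrogenase and cyclohydrolase (ENSMUSG00000005667, chr6:83305691-83325908, minus strand), measured 253, 167, 264 and 209 CPM in media and 421, 372, 397 and 364 CPM with lactate. Its groups did not overlap, and the rise was 1.74-fold (log2 fold change 0.80 ± 0.14 SE, adjusted p = 0.00102, edgeR). Mthfd1l, whose enzyme releases formate from the mitochondrial folate (ENSMUSG00000040675, chr10:3973118-4167081, plus strand), measured 292, 269, 287 and 289.9 CPM in media and 282, 263, 278 and 283 CPM with lactate. These groups overlapped and their spreads were narrow. The means were 284 ± 10.8 and 276 ± 9.31 CPM (SD, n = 4 each), and the change did not pass the test (log2 fold change -0.041 ± 0.11 SE, adjusted p = 0.802, edgeR). Its 95% interval ran from 0.823-fold to 1.15-fold, which leaves out the fold changes of the 7 genes that passed. An exact permutation test, which enumerates all 70 ways to split 8 libraries into groups of 4, gave p = 0.343 for Mthfd1l (two-sided, on log2(CPM + 1), n = 4 per group).

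In the cytosolic and nuclear arm, Shmt1 is the counterpart of Shmt2 (ENSMUSG00000020534, chr11:60788104-60811718, minus strand). Shmt1 measured 48.5, 24.5, 42.1 and 32.0 CPM in media and 144, 92.0, 108 and 106 CPM with lactate. Its groups were far apart, and it had the largest fold change of the 9 genes, 3.06-fold (log2 fold change 1.61 ± 0.21 SE, adjusted p = 0.000172, edgeR). Its exons share 4.74% of their length with Smcr8 on the opposite strand. Mthfd1, the trifunctional cytosolic enzyme (ENSMUSG00000021048, chr12:76255298-76319803, plus strand), measured 97.0, 52.8, 96.4 and 63.5 CPM in media and 233, 145, 171 and 153 CPM with lactate. Lactate replicate 1 was the highest by a wide margin, and the lowest lactate library was still above the highest media library. Mthfd1 rose 2.27-fold (log2 fold change 1.18 ± 0.23 SE, adjusted p = 0.00151, edgeR). Tyms, the thymidylate synthase that consumes methylenetetrahydrofolate for DNA synthesis (ENSMUSG00000025747, chr5:30058202-30073617, minus strand), measured 42.1, 33.8, 37.7 and 33.0 CPM in media and 58.2, 43.4, 50.2 and 50.5 CPM with lactate. The groups did not overlap, yet by little more than 1 CPM between lactate replicate 2 and media replicate 1. The change of Tyms did not pass (log2 fold change 0.46 ± 0.24 SE, adjusted p = 0.138, edgeR), and its 95% interval ran from 0.968-fold to 1.96-fold. The exact permutation test gave p = 0.0286 for Tyms, as for each of the 7 genes that passed, which is the smallest two-sided p that 4 against 4 libraries allow. When the 8 activated libraries were fitted alone, Tyms passed (adjusted p = 0.00715, edgeR), the 1 of 29 alternatives in which it did. That fit called 2476 of all genes tested as higher, against 1917 in the fit of all 12 libraries. Tyms and Phgdh each have a named processed pseudogene elsewhere in the genome, Tyms-ps and Phgdh-ps1, with which reads could be shared.

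The number of calls depended on how donors entered the model. Donor tags in the labels recur in the low and the high library numbers and were read separately in each, which matches the 5 mice that the record names as sources of activated cells. On that reading 3 donors gave libraries of both activated groups, WT1 and WT3 of the low numbers and WT2 of the high ones, and 2 donors gave 1 activated library each. With the donor as a replicate block in the fit of all 12 libraries, 2 of the 9 genes passed, Shmt1 (adjusted p = 0.00299, edgeR) and Shmt2 (adjusted p = 0.00419), and the other 5 that passed without it were at 0.0118 (Psat1), 0.0131 (Mthfd2), 0.0137 (Mthfd1), 0.0191 (Psph) and 0.0372 (Phgdh). Their log2 fold changes in that fit were 0.70, 0.68, 1.04, 1.26 and 0.74 in the same order, against 0.85, 0.80, 1.18, 1.38 and 0.88 without the block. Of all 13767 genes tested, 992 passed in that fit, 625 of them as higher. That fit has 5 residual degrees of freedom, of which 3 come from the naïve libraries. With the same donor block fitted to the 8 activated libraries alone, an alternative added after seeing the data, 7 of the 9 genes passed, at adjusted p-values from 0.000172 to 0.000953 (edgeR). It gave Tyms an adjusted p of 0.0119. The block without naïve replicate 4, also added then, gave 7 calls. The counts of all genes that passed in both of these added fits are given in the last section.

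Within the donors, single media and lactate libraries can be set side by side without a test. The difference in log2(CPM + 1) in donors WT1 and WT3 of the low and WT2 of the high library numbers was 1.56, 1.11 and 1.69 for Shmt1, the gene with the largest rise. For Psph it was 1.32, 0.99 and 1.42 in the same order. Mthfd1 varied most between donors, at 1.26, 0.58 and 1.25. Each of the 8 genes other than Mthfd1l was higher with lactate in 3 of 3 donors, and Mthfd1l was lower in 3 of 3, by at most 0.13. For the 8 genes this direction was fixed in advance, since every lactate library lay above every media library, so it carries no weight. Donor WT3 had the smallest difference of the 3 for 7 of the 8 genes that were higher. The running numbers of the libraries form a low and a high set, and the direction of all 9 differences was the same within each set, although the high set has 1 media library. For the same 8 genes this too was fixed by the groups not overlapping, so it does not test an effect of the library numbers.

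**Figure D2:**
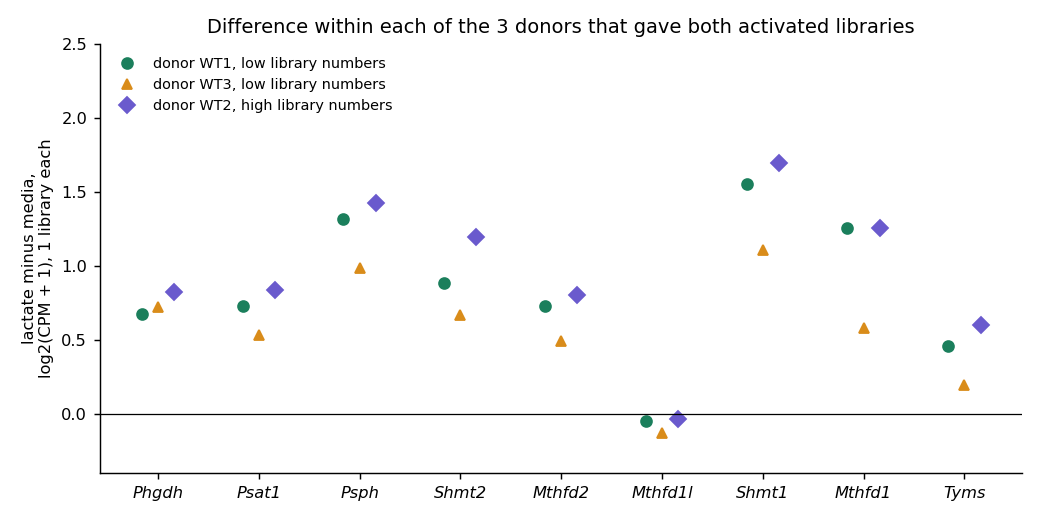
Difference between the lactate and the media library of the same donor in log2(CPM + 1) (y axis) for the 9 genes (x axis), 1 symbol per donor. In 8 genes all 3 donors lie above 0, and Mthfd1l lies between -0.13 and -0.035.

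Activation itself, media against naïve cells, was accompanied by a rise of 8 of the 9 genes, against 28.5% of all genes tested that passed in that direction (edgeR). The groups did not overlap for the same 8, a pattern seen for 30.7% of all genes tested. The median log2 fold change was 1.86 over the 9 genes and -0.029 over all genes tested. These comparisons share the media libraries with the one above and the naïve libraries with the one that follows, so their results are not independent. Psat1 had the largest rise: it measured 26.7, 30.4, 37.3 and 29.3 CPM in naïve replicates 1 to 4, and in media the mean was 11.8-fold higher (log2 fold change 3.57 ± 0.17 SE, adjusted p = 5.56e-09, edgeR). In naïve cells Mthfd2 measured 24.4, 30.4, 33.6 and 32.2 CPM, and it rose 7.40-fold in media (log2 fold change 2.89 ± 0.15 SE, adjusted p = 1.39e-08, edgeR). Neither gene exceeded 37.3 CPM in a naïve library, and neither was below 166.5 CPM in a media library. Phgdh measured 31.7, 33.6, 41.4 and 22.0 CPM in naïve cells, with replicate 4 the lowest, and rose 5.27-fold (log2 fold change 2.40 ± 0.20 SE, adjusted p = 4.82e-07, edgeR). Tyms measured 6.65, 12.9, 7.06 and 4.48 CPM in naïve cells, with replicate 2 the highest and replicate 4 the lowest. Tyms rose 4.73-fold (log2 fold change 2.24 ± 0.25 SE, adjusted p = 5.97e-06, edgeR).

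Mthfd1l, which did not pass between the activated groups, was at 74.8, 86.6, 91.1 and 60.8 CPM in naïve cells and rose 3.63-fold on activation in media (log2 fold change 1.86 ± 0.11 SE, adjusted p = 3.95e-08, edgeR). Mthfd1 differed from it. In naïve cells Mthfd1 measured 59.3, 72.5, 64.2 and 43.7 CPM, a range that overlapped that of media, where replicate 2 was below the naïve mean. The change of Mthfd1 on activation in media did not pass (log2 fold change 0.37 ± 0.22 SE, adjusted p = 0.16, edgeR), with a 95% interval from 0.923-fold to 1.81-fold. The remaining 3 genes rose between 2.56-fold and 3.43-fold: Shmt1 from a naïve mean of 10.7 ± 2.08 CPM, Psph from 19.6 ± 6.42 CPM and Shmt2 from 119 ± 11.0 CPM (SD, n = 4 each). All 3 had non-overlapping groups.

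In lactate against naïve cells all 9 genes rose, against 33.0% of all genes tested (edgeR), and for all 9 the groups did not overlap, against 35.0% of all genes tested. Increases ran from 2.93-fold for Mthfd1 (log2 fold change 1.55 ± 0.23 SE, adjusted p = 4.64e-05, edgeR) to 21.3-fold for Psat1 (log2 fold change 4.42 ± 0.17 SE, adjusted p = 1.80e-09, edgeR). The median log2 fold change was 2.73 over the 9 genes and 0.012 over all genes tested. With naïve replicate 4 and media replicate 2 left out together, an alternative added after seeing the data, 7 of the 9 genes passed between lactate and media, 8 between media and naïve cells and 9 between lactate and naïve cells, as with all libraries. With all libraries, the shares of all genes tested that passed as higher in these comparisons were 13.9%, 28.5% and 33.0%. These are not the shares of the smaller fit, which are not given here. Without media replicate 2 alone 2260 of all genes passed between lactate and media, and without naïve replicate 4 alone 4830.

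**Figure D3:**
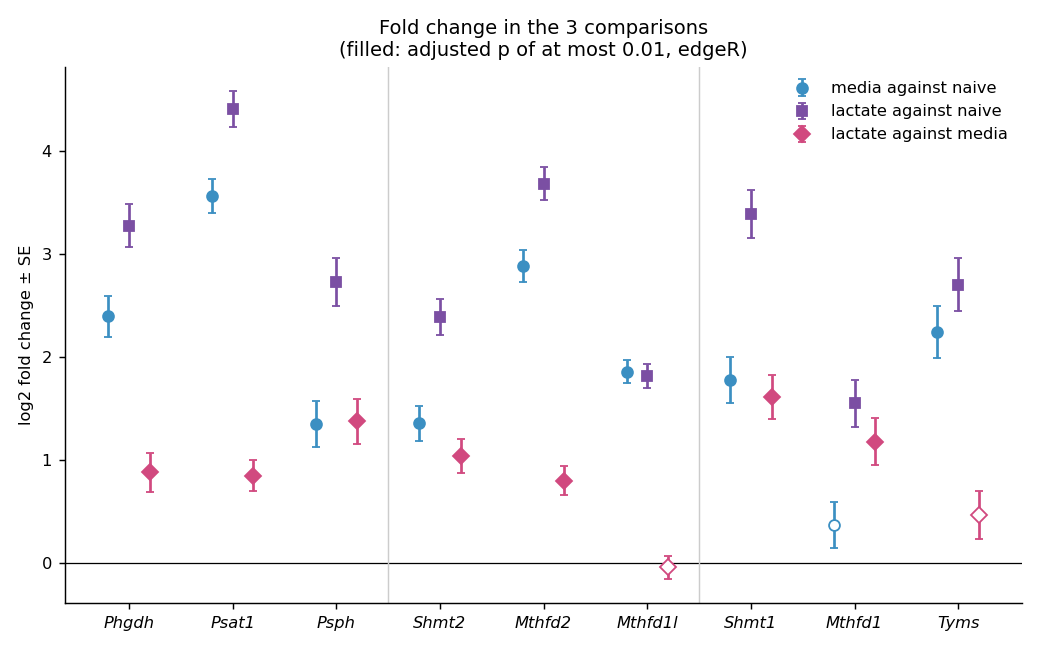
Log2 fold change ± SE (y axis) of the 9 genes (x axis) in the 3 comparisons, from the edgeR model without a donor block. Filled symbols have an adjusted p of at most 0.01. Mthfd1 is open in media against naïve (0.37), and Mthfd1l (-0.041) and Tyms (0.46) are open in lactate against media.

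Levels of different genes were compared per length, as TPM, which divides counts by the gene length of the table before scaling each library to the same total. Shmt2 had the highest mean in every group, 130.3 TPM in naïve, 339 in media and 634 in lactate libraries. In naïve cells it was followed by Mthfd1l (60.0 TPM), Mthfd1 (45.8), Phgdh (44.0), Mthfd2 (29.5), Psat1 (24.8), Psph (15.4), Shmt1 (9.46) and Tyms (4.30), and the ranges of neighbours were apart only between Shmt2 and Mthfd1l, Psat1 and Psph, and Shmt1 and Tyms. In media the first 5 genes, Shmt2, Psat1 (299 TPM), Phgdh (237), Mthfd1l (222) and Mthfd2 (222), each overlapped its neighbour and were apart from Mthfd1 (60.7), Psph (40.3), Shmt1 (32.9) and Tyms (20.9). With lactate the order was Shmt2, Psat1 (490 TPM), Phgdh (398), Mthfd2 (352), Mthfd1l (197), Mthfd1 (125), Psph (95.2), Shmt1 (91.7) and Tyms (26.2). The ranges of Mthfd1l and Mthfd2 thus overlapped in media and were apart with lactate.

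Ratios within a library between a mitochondrial gene and its cytosolic counterpart are given as a description, without a test. Shmt2 over Shmt1 in TPM had a mean of 14.1 (11.4 to 15.4) in naïve, 10.4 (9.54 to 11.1) in media and 7.06 (5.93 to 8.08) in lactate libraries. The media and lactate ranges did not overlap. Mthfd2 over Mthfd1 was 0.666 (0.524 to 0.939) in naïve, 3.75 (3.32 to 4.18) in media and 2.89 (2.30 to 3.28) in lactate libraries, so the mitochondrial gene was the lower of the 2 in naïve cells and the higher after activation. Mthfd1l over Mthfd1 was 1.32 (1.20 to 1.42), 3.92 (2.98 to 5.09) and 1.63 (1.21 to 1.85) in the same order. All 3 ratios were therefore lower in every lactate than in every media library, while both genes of the first pair and of the second rose.

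**Figure D4:**
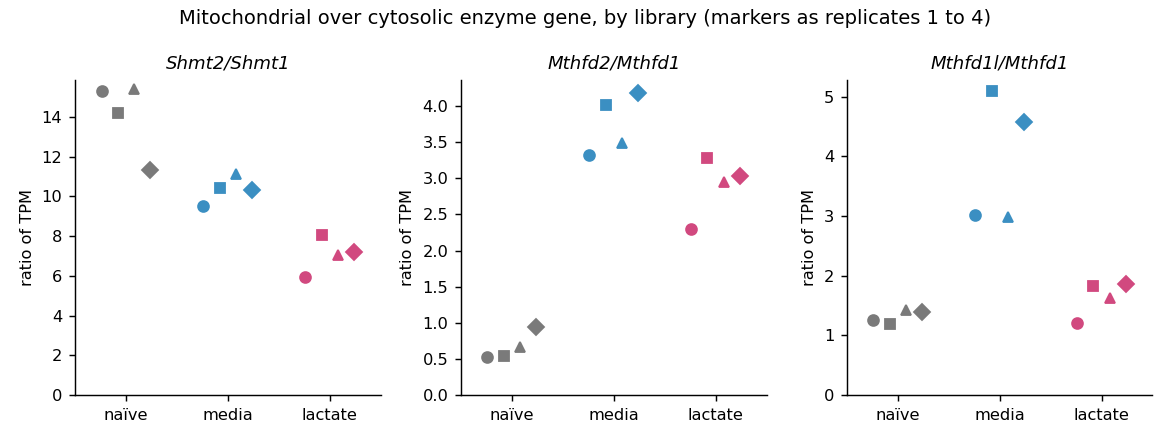
TPM of Shmt2 over Shmt1, Mthfd2 over Mthfd1 and Mthfd1l over Mthfd1 (y axes, linear and starting at 0) in each library by group (x axes), with symbols for replicates 1 to 4 as in the plot of levels. In each panel the lactate libraries lie below the media libraries.

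Other genes of the pathway were grouped by function and read from the same fit of lactate against media, in which 13.9% of all genes tested passed as higher and the median was -0.0016. That fit ignores shared donors. It called 1917 genes as higher, against 625 with the donor block in the fit of all 12 libraries. Results with the block are not given for the list genes. Of 12 genes for folate entry and interconversion that were tested, 4 rose and none fell (median log2 fold change 0.26), although 1, Aldh1l1, was lower at an unadjusted p under 0.05 and passed as lower by the likelihood ratio test and DESeq2. Ftcd, Bhmt, Gnmt, Sds and Sdsl of the lists were not analysed here. Slc19a1, the reduced folate carrier of the plasma membrane, rose from 29.1 ± 7.12 to 89.8 ± 12.8 CPM (SD, n = 4; log2 fold change 1.62 ± 0.17 SE, adjusted p = 6.36e-05, edgeR). Fpgs, which adds glutamates that keep folate in the cell, rose from 17.1 ± 4.39 to 39.6 ± 5.93 CPM (log2 fold change 1.21 ± 0.23 SE, adjusted p = 0.00134, edgeR). Slc25a32, the mitochondrial folate carrier, rose from 21.0 ± 2.26 to 35.9 ± 6.46 CPM (log2 fold change 0.77 ± 0.13 SE, adjusted p = 0.000856, edgeR), and the proton-coupled transporter Slc46a1 rose from 0.19 ± 0.0212 to 0.96 ± 0.226 CPM, below the 1 CPM of the filter in media and near it with lactate. On activation in media, Fpgs, Slc25a32 and Slc46a1 had fallen. Aldh1l2, a mitochondrial formyltetrahydrofolate dehydrogenase, had no counts in 3 of 4 naïve libraries and was at 6.08 to 14.6 CPM in the activated ones, with no passing difference between media and lactate.

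Of the 4 genes of the glycine cleavage system, which takes a one-carbon unit from glycine, 3 passed as higher and 1 fell (median 0.81). Gldc, the decarboxylase, measured 0.324, 0.273, 0.167 and 0.251 CPM in media and 4.10, 1.68, 2.97 and 2.89 CPM with lactate. It reached 1 CPM in the lactate libraries alone and so entered the test only through the group where it was high. Neither its count among the 3 nor its part in the median of the list carries weight. Gcsh, the carrier protein, rose from 16.0 ± 3.89 to 33.8 ± 4.42 CPM (log2 fold change 1.08 ± 0.17 SE, adjusted p = 0.000506, edgeR). Dld, which also serves other dehydrogenase complexes, passed just under the threshold (log2 fold change 0.54 ± 0.14 SE, adjusted p = 0.00997, edgeR). Amt, the aminomethyltransferase that hands the unit to folate, went from 8.20 ± 1.23 to 3.26 ± 1.71 CPM, a fall (log2 fold change -1.33 ± 0.30 SE, adjusted p = 0.00375, edgeR). In the methionine cycle and transsulfuration list, 4 of 9 tested genes rose and none fell (median 0.54), and none was lower at an unadjusted p under 0.05 or by the other 3 tests. Mat2a, which makes S-adenosylmethionine, rose from 101 ± 22.7 to 243 ± 62.8 CPM (log2 fold change 1.26 ± 0.19 SE, adjusted p = 0.000298, edgeR), beside a naïve level of 247 CPM. Cth, the cystathionine lyase, rose from 17.6 ± 7.86 to 50.3 ± 8.41 CPM (log2 fold change 1.51 ± 0.39 SE, adjusted p = 0.00869, edgeR). Ahcy, the hydrolase of S-adenosylhomocysteine, and Cbs, which joins serine to homocysteine, passed as higher as well. Cbs was at 0 in all 4 naïve libraries, at 0.694, 0.109, 0.502 and 0.439 CPM in media and at 1.69, 1.83, 1.70 and 1.54 CPM with lactate. Cbs too entered the test only through the lactate libraries, so neither its count among the 4 nor its part in the median carries weight.

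The formyl folate users of purine synthesis, Gart and Atic, both rose (median log2 fold change 1.20). Gart measured 134, 71.0, 123 and 80.0 CPM in media replicates 1 to 4 and 343, 216, 266 and 236 CPM with lactate (log2 fold change 1.38 ± 0.23 SE, adjusted p = 0.000663, edgeR). Atic rose from 134 ± 22.5 to 274 ± 29.8 CPM (log2 fold change 1.03 ± 0.16 SE, adjusted p = 0.000421, edgeR). Neither passed in media against naïve, as Mthfd1 did not. Of 12 other thymidylate and S phase genes, all 12 rose on activation in media, beside 28.5% of all genes tested. With lactate 2 of the 12 rose further, a share near the 13.9% of all genes tested, Pcna (log2 fold change 0.49 ± 0.10 SE, adjusted p = 0.00165, edgeR) and Mcm3 (log2 fold change 0.37 ± 0.10 SE, adjusted p = 0.00992, edgeR). Their median log2 fold change with lactate was 0.35, with all 12 above 0. Of 12 genes for serine transport and use, 1 rose, Sfxn1, the serine carrier of the inner mitochondrial membrane, from 139 ± 18.5 to 222 ± 20.0 CPM (log2 fold change 0.68 ± 0.16 SE, adjusted p = 0.00566, edgeR), and 1 fell, Srr, the serine racemase (log2 fold change -0.67 ± 0.16 SE, adjusted p = 0.00507, edgeR). The plasma membrane carriers Slc1a4 and Slc1a5 were at adjusted p-values of 0.0548 and 0.0177.

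Regulators that are known to act on serine and folate genes did not pass between media and lactate at the level of their own mRNA, 0 of 9 in either direction (edgeR quasi-likelihood). In that fit 3451 of all 13767 genes tested passed in either direction, and 0 of 9 is given as a description. At an unadjusted p under 0.05, 4 were higher and 1 lower. By the likelihood ratio test 2 were higher and 1 lower, by DESeq2 1 and 1, and by limma voom 0 and 0. Of all genes tested, these tools called 4245, 4551 and 3485 in either direction. At an adjusted p of at most 0.05, Myc and Atf3 would pass as higher and Ddit3 as lower (log2 fold change -0.72 ± 0.21 SE, adjusted p = 0.0158, edgeR). Myc, a driver of growth genes in activated T cells, measured 336, 243, 303 and 565 CPM in media and 633, 573, 595 and 649.6 CPM with lactate (log2 fold change 0.76 ± 0.25 SE, adjusted p = 0.0293). Media replicate 4 was far above the other media libraries, and the groups still did not overlap. Atf4, the transcription factor of the amino acid response, was at 355 ± 60.9 and 437 ± 14.1 CPM (log2 fold change 0.30 ± 0.13 SE, adjusted p = 0.0842). Among 10 other known targets of ATF4, 3 rose and none fell (median 0.57), beside 13.9% of all genes tested that passed as higher. None was lower at an unadjusted p under 0.05 or by DESeq2 and limma voom, and 1 was lower by the likelihood ratio test. These were Slc7a5, the large neutral amino acid carrier, from 309 ± 114 to 732 ± 98.8 CPM (log2 fold change 1.24 ± 0.25 SE, adjusted p = 0.00226, edgeR), Sesn2 from 38.1 ± 11.0 to 84.2 ± 16.5 CPM (log2 fold change 1.14 ± 0.23 SE, adjusted p = 0.00204, edgeR) and Aldh18a1, an enzyme of proline synthesis (log2 fold change 0.78 ± 0.16 SE, adjusted p = 0.00213). Asns, Trib3 and Chac1, which had risen on activation in media, had log2 fold changes of 0.54, 0.27 and 0.58 and did not pass.

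**Figure D5:**
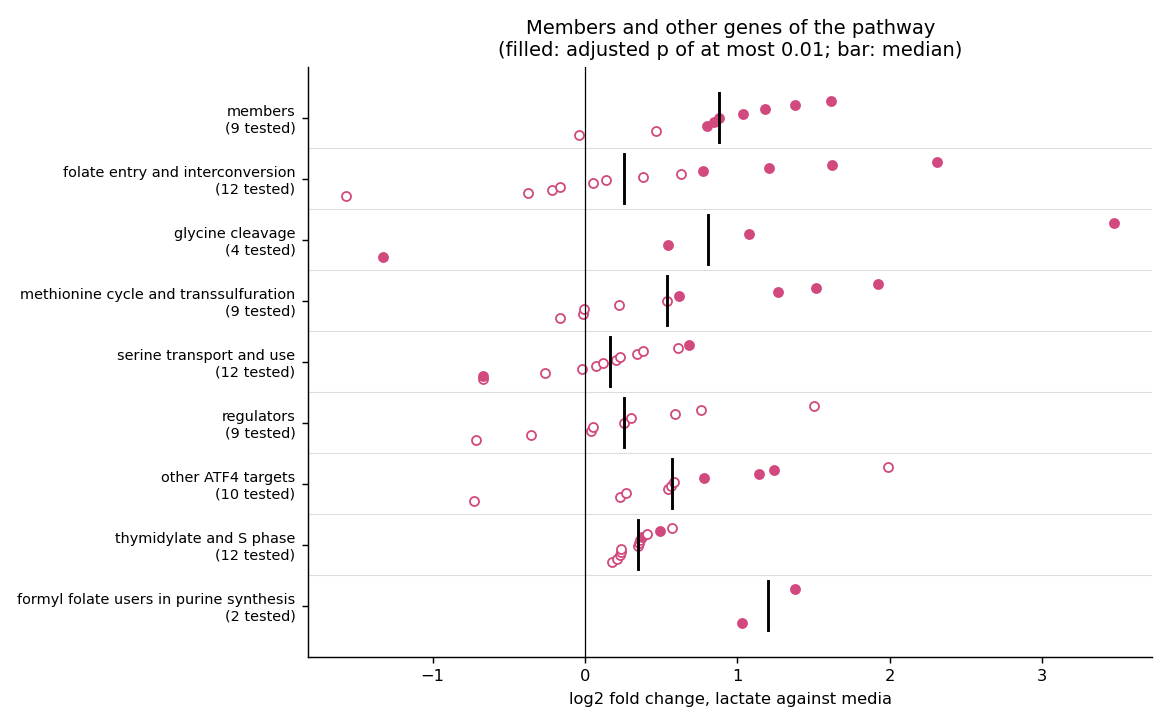
Log2 fold change of lactate against media (x axis) for each tested gene of the 9 members and of 8 lists (y axis), with a bar at the median of each list. Symbols are filled at an adjusted p of at most 0.01 in the edgeR model without a donor block. The median of the members is 0.88, and those of the lists of 9 or more genes run from 0.16 for serine transport and use to 0.57 for other ATF4 targets. The smaller lists have medians of 0.81 (glycine cleavage, 4 genes) and 1.20 (formyl folate users in purine synthesis, 2 genes). Gldc and Cbs, which entered the test only through the lactate libraries, are in the medians of their lists.

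For each of the 9 genes, the most similar genes were taken as those with the smallest root mean square difference in log2(CPM + 1), centred on each gene's own mean over the 12 libraries, among other genes with a mean of at least 5 CPM. Mthfd1 was closest to Cad, the enzyme of the first steps of pyrimidine synthesis (0.096), and to Hspd1, the mitochondrial chaperonin (0.149). Shmt2 was closest to Ran (0.123) and Ppa1 (0.127), and Shmt1 to Slc7a5 (0.224) and Rbpj (0.227). Mthfd1l was closest to Chaf1b (0.118), a chromatin assembly factor of S phase, and to Mms22l (0.119), and Mthfd2 to Trip13 (0.166) and Ybx3 (0.178). Psat1 had Nt5dc2 and the serine carrier Slc1a4 as nearest genes, Phgdh had Slc9a5 and Nfil3, Psph had Akap1 and Ccne1, and Tyms had Ppm1j and Chtf18, all between 0.184 and 0.276. Over the 8 activated libraries alone the nearest genes were others. The first of them was Rps27l for Phgdh (0.0454), Ruvbl1 for Psat1 (0.0508) and Wdr74 for Psph (0.0506). It was Hspbp1 for Shmt2 (0.0659), the tRNA synthetase Gars for Mthfd2 (0.031) and Gng5 for Mthfd1l (0.0369). For Shmt1 it was Abcf2 (0.0391), for Mthfd1 Pop1 (0.081) and for Tyms Pdxk (0.0388). The measure is a description of these libraries.

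All 9 genes were matched by symbol to RefSeq promoters (GRCm38.p6; 250 bases before to 50 after a start), with 2 entries for Psat1. The 130 bases before the start are shown for Mthfd1, which rose with lactate and did not pass on activation, for Mthfd1l, which rose on activation and did not pass with lactate, and for Shmt2, the gene with the highest TPM, which rose in both. Capitals mark matches of the motifs searched, on either strand.
Mthfd1 (chr12:76255102-76255231, plus strand): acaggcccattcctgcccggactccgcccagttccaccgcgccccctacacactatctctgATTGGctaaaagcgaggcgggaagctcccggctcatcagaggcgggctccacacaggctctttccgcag
Mthfd1l (chr10:3972945-3973074, plus strand): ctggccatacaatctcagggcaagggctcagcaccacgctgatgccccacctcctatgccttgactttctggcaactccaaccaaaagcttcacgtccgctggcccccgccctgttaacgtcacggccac
Shmt2 (chr10:127522445-127522574, minus strand): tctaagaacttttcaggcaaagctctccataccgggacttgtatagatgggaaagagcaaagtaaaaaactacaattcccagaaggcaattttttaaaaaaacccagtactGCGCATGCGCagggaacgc

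The motifs searched were TGATGNAA, the core of the composite element of ATF4 and C/EBP, CACGTG, the E-box bound by MYC, and TTTNGCGC of E2F, with CCAAT and the 10-base NRF1 palindrome added after the sequences had been seen. None of them overlapped another in the 3 sequences shown. CCAAT or its complement ATTGG lay in 6 of the 9 genes (Mthfd1, Mthfd2, Phgdh, Psat1, Psph and Shmt1), and 37.4% of the 32851 promoters of the table hold it. In Mthfd1 it begins 69 bases before the start. Shmt2 holds the NRF1 palindrome, in capitals above, which begins 19 bases before its start and is held by 0.971% of promoters. CCAAT and this palindrome were picked from these same sequences, so their presence carries no weight. Any relation of a motif to the levels was not tested. The window of Mthfd1l matched none of the motifs. Tyms held CACGTG (7.15% of promoters), 61 bases before its start. TGATGNAA, held by 3.97% of promoters, and TTTNGCGC, held by 1.38%, matched in none of the 9 genes within this window.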

How the data were processed

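Members and lists were chosen with earlier results of these data known. By the study's methods and the labels' processing notes, the authors made the deposited raw counts with bcl2fastq 2.20.0.422, STAR 2.7.5b (mm10/GRCm38, PCR duplicates removed) and featureCounts, from a stranded mRNA kit. Whether reads were counted by strand is not given in the sources used here. The deposited table also holds gene length, equal for all 9 members to the union of exons in GENCODE M21.

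Of 13780 genes, 13767 reached 1 CPM in at least 3 libraries and were tested. TMM-scaled counts were fitted as 1 model with 3 groups and no block to all 12 libraries with edgeR 4.0.16 (R 4.3.3; quasi-likelihood test, two-sided, Benjamini-Hochberg over all tested genes, adjusted p of at most 0.01, common dispersion 0.0553). SE is the log2 fold change over the square root of F. Alternatives also used limma 3.58.1 and DESeq2 1.42.0. Exact permutation tests used a pseudocount of 1. Named genes were the members, list genes and the 2 nearest genes of each member; 1 list gene is not reported here. Mice gave separate libraries within each group, but media and lactate libraries share donors: deviations from the group means correlated at 0.427, 0.172 and 0.632 within the 3 shared donors, all above 0.1. Donors were taken to pair samples in the alternatives with a donor block alone. The main fit, which gave the fold changes, SE, p-values and intervals unless a block is named, ignores this pairing. Media and lactate replicates 2, of different donors, correlated at 0.331, above the 0.172 of a shared donor. Title numbers match donors in part. The fit was tested on simulated data.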

Additional observations from a re-analysis of the deposited data

Results flagged for a closer look

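In lactate replicate 1, Shmt2 was at 685 CPM, far from the other 3 lactate libraries (595 to 608 CPM), by Dixon's criterion for 4 samples. Of 27 groups of 4 examined (9 genes in 3 groups) this was the 1 that met it, and chance gives about 1 in 20. Without this library Shmt2 still passed in lactate against media.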

How the results depend on the processing

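Over 29 alternatives for lactate against media and 25 for each comparison with naïve cells, no difference changed direction. With the replicate block by donor, fitted to all 12 libraries, 2 of the 9 genes and 992 of all genes passed in lactate against media, against 7 and 3451 without it. Blocks added after seeing the data, on the activated libraries alone, without naïve replicate 4 and as a random term in limma voom, gave 7 of the 9 and 3769, 3184 and 4549 of all genes. The block by title number also gave 7 of the 9, and 3256 of all genes. At an adjusted p of at most 0.05, 5461 of all genes passed. Leaving out 1 library at a time, between 6 and 7 of the 9 genes and between 2260 (without media replicate 2) and 4830 (without naïve replicate 4) of all genes passed. The calls in both comparisons with naïve cells, 8 and 9 of the 9 genes, were the same under every alternative run. Alternatives used other tools, scalings, filters, sample sets and a term for library numbers. The members had at least 80 counts in every library, and no alternative depth was tried.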
